A study of Mus musculus with 36 samples.

Results

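The 9 genes described here are annotated long noncoding RNAs of the mouse, Trp53cor1, Pvt1, Gm15987, Snhg15, Gas5, Neat1, Malat1, Meg3 and Dgkeos, taken by name out of 19001 genes in the paired-end table and 17697 in the single-end table. All 9 were in both tables and all are typed as long noncoding RNA in the RefSeq annotation. They were chosen by name with their levels and their X-ray and genotype differences in these same libraries known, so those differences are given as a description, and their place among all genes tested supports no statement about the group. Total RNA of liver, spleen and thymus had been sequenced in 36 libraries, in 12 groups of 3. The tested paired-end groups were liver, spleen and thymus of mice with wild-type p53 (wt), labelled 2 Gy of X-rays and 3 h, and their counterparts were the same tissues of wt mice without treatment. The single-end groups were the same tissues from mice whose p53 lacks its C-terminus (d24) and from wt mice, all titled xray. The characteristics differ from these titles: they give control for d24 liver, d24 thymus and wt single-end spleen, and 2 Gy and 3 h for d24 spleen and for wt single-end liver and thymus. In every tissue d24 and wt thus carry opposite treatment labels there, so genotype and exposure cannot be told apart. The labels give no strain, age or sex and do not say whether replicates or tissues came from separate mice, so p-values measure the spread between these libraries, which may be technical.

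Levels are the authors' deposited normalised values, called signal here: the reads of a gene per 1000000 reads of effective library size. The paired-end libraries held 44348579 to 81322683 reads recovered from the tables and the single-end libraries 20481048 to 38042710, so that 1 read was worth 0.00991 to 0.0377 and 0.0171 to 0.0828 signal. The tables were normalised separately, and tests were made within a table.

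Long noncoding RNAs are transcripts without a long reading frame that act as RNA or through the act of being transcribed. Ionising radiation stabilises the transcription factor p53, which switches on genes for arrest and death. Thymus and spleen are sensitive to radiation and the liver is resistant. Trp53cor1, also known as lincRNA-p21, lies beside the cell cycle inhibitor gene Cdkn1a and was described in mouse cells as induced by p53, and Pvt1, beside Myc, holds a p53-responsive isoform in mouse cells. Gas5 and Snhg15 are host genes of small nucleolar RNAs, carried in their introns. Neat1 is the scaffold of paraspeckles, Malat1 sits in nuclear speckles, Meg3 is an imprinted RNA of the Dlk1-Dio3 cluster, and Dgkeos is the antisense neighbour of the diacylglycerol kinase gene Dgke.

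Of the 9 members, 6 had a start site window in the RefSeq promoter table (GRCm38.p6, 250 bases before to 50 after the start), 8 windows in all. The 4 windows that held a match to one of 4 motifs searched are shown 5′ to 3′ on the strand of the gene, with the match in capitals. Each motif reads the same on both strands. The Gm15987 window, chr6:128974980-128975279 on the minus strand, holds a match to the p53 half-site consensus that begins 138 bases before the start. The Snhg15 window, chr11:6528711-6529010 on the minus strand, holds TGACGTCA, the full cyclic AMP response element, from 88 bases before the start and CACGTG, the E-box bound by Myc and Max, just after it. TGACGTCA also lies 46 bases before the start in the Gas5 window, chr1:161034916-161035215 on the plus strand, and 57 bases before it in the Meg3 window, chr12:109540746-109541045 on the plus strand.
Gm15987: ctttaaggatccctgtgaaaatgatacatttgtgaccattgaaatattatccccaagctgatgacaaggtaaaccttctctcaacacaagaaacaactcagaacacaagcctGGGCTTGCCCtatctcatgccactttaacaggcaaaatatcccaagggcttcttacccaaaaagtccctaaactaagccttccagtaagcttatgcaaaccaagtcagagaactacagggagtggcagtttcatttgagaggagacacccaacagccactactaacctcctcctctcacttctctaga
Snhg15: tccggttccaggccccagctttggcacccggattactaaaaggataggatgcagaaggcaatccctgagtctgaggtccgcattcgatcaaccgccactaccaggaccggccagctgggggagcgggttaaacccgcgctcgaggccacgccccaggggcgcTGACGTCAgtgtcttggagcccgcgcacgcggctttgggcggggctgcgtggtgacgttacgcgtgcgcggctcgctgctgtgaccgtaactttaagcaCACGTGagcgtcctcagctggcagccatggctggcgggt
Gas5: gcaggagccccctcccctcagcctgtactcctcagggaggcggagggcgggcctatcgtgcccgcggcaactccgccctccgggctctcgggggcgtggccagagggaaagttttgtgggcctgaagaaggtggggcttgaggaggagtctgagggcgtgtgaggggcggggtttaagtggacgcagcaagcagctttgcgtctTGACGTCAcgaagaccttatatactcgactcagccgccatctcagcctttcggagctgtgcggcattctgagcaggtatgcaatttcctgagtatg
Meg3: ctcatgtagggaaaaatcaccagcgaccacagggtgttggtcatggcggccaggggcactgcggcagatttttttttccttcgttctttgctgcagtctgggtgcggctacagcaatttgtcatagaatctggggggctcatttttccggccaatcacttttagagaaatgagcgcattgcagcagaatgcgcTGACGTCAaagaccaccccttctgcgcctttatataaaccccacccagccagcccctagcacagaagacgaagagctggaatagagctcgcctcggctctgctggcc
Among 32851 promoter windows of the same length, 8.36% held the p53 half-site, 1.79% TGACGTCA and 7.15% CACGTG. A site of 2 half-sites 0 to 13 bases apart was in 0.0731% of windows and in none of the 8 member windows. These matches are letters in a window and no binding was measured. Trp53cor1, Neat1 and Pvt1 are named without a window.

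The labels were checked against the levels of Cdkn1a, Trp53, Xist and a list of p53 targets. Cdkn1a, a standard p53 target, reached 117 ± 8.73, 157 ± 6.19 and 108 ± 8.60 signal in X-ray liver, spleen and thymus, against 14.5 ± 2.47, 4.98 ± 1.29 and 12.99 ± 2.19 in untreated liver, spleen and thymus (SD, n = 3 each). In single-end spleen it was 373 ± 49.3 in d24 and 7.40 ± 1.96 in wt libraries labelled xray, in single-end thymus 38.0 ± 25.9 in d24 and 14.6 ± 2.90 in wt, and in single-end liver 277 ± 147 in d24 and 66.2 ± 70.0 in wt. The wt spleen and thymus libraries labelled xray thus lay near the untreated level of the other table and went against their titles. The characteristics give control for 9 libraries titled xray, those of d24 liver, d24 thymus and wt spleen, and WT for all 9 titled d24. By Cdkn1a, d24 spleen above wt spleen followed the treatment characteristics, while d24 liver, labelled control there, was above wt liver by its mean and wt thymus, labelled 2 Gy there, was low. Every genotype difference below is therefore between libraries titled d24 xray and wt xray, of which one group in each tissue is also labelled control. Trp53 itself was at 198 ± 47.1 in d24 spleen and 99.2 ± 7.76 in wt spleen and did not pass in any tissue, and its level does not check a deletion of its C-terminus. Xist, the RNA of the inactive X chromosome, was above 10 signal in 2 of 3 X-ray and 1 of 3 untreated libraries of each tissue, in 3 of 3 d24 and 1 of 3 wt spleen libraries, and in 3 of 3 d24 and 2 of 3 wt thymus libraries, so sex is uneven between groups. The p53 target list of 24 genes rose in 21 of 23 tested in X-ray spleen and fell in 1, rose in 22 of 24 in X-ray thymus and in 12 of 24 in X-ray liver, with median log2 differences of 2.82, 2.31 and 1.00 against -0.03, 0.01 and -0.05 over all genes tested.

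In wt spleen, 6 of the 7 members tested rose after X-rays, and in wt thymus 4 of the 8 tested. A gene was tested where its signal reached 1 in at least 3 of the 6 libraries compared, and passed where its limma p-value on log2(signal + 0.5), adjusted over all genes tested, was at most 0.05. Over all genes, 19.5% were called higher in X-ray spleen, 9.77% in X-ray thymus and 0.242% either way in X-ray liver, and since the rule used these contrasts nothing is read from the members' counts. Of the 263 long noncoding RNAs tested in spleen 43 rose and 50 fell, and of the 278 in thymus 23 rose and 15 fell. In liver none of the 5 members tested passed and none of 270 long noncoding RNAs did, against 32 of 13250 genes, while 2902 genes had an unadjusted p under 0.05. DESeq2 called 631 genes in liver, and limma with 1 library left out at a time called 9 to 2836. Without X-ray liver replicate 1, Pvt1 (limma, adjusted p = 0.0177) and Gas5 (adjusted p = 0.0169) passed, so the liver result depends on single libraries.

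**Figure D1:**
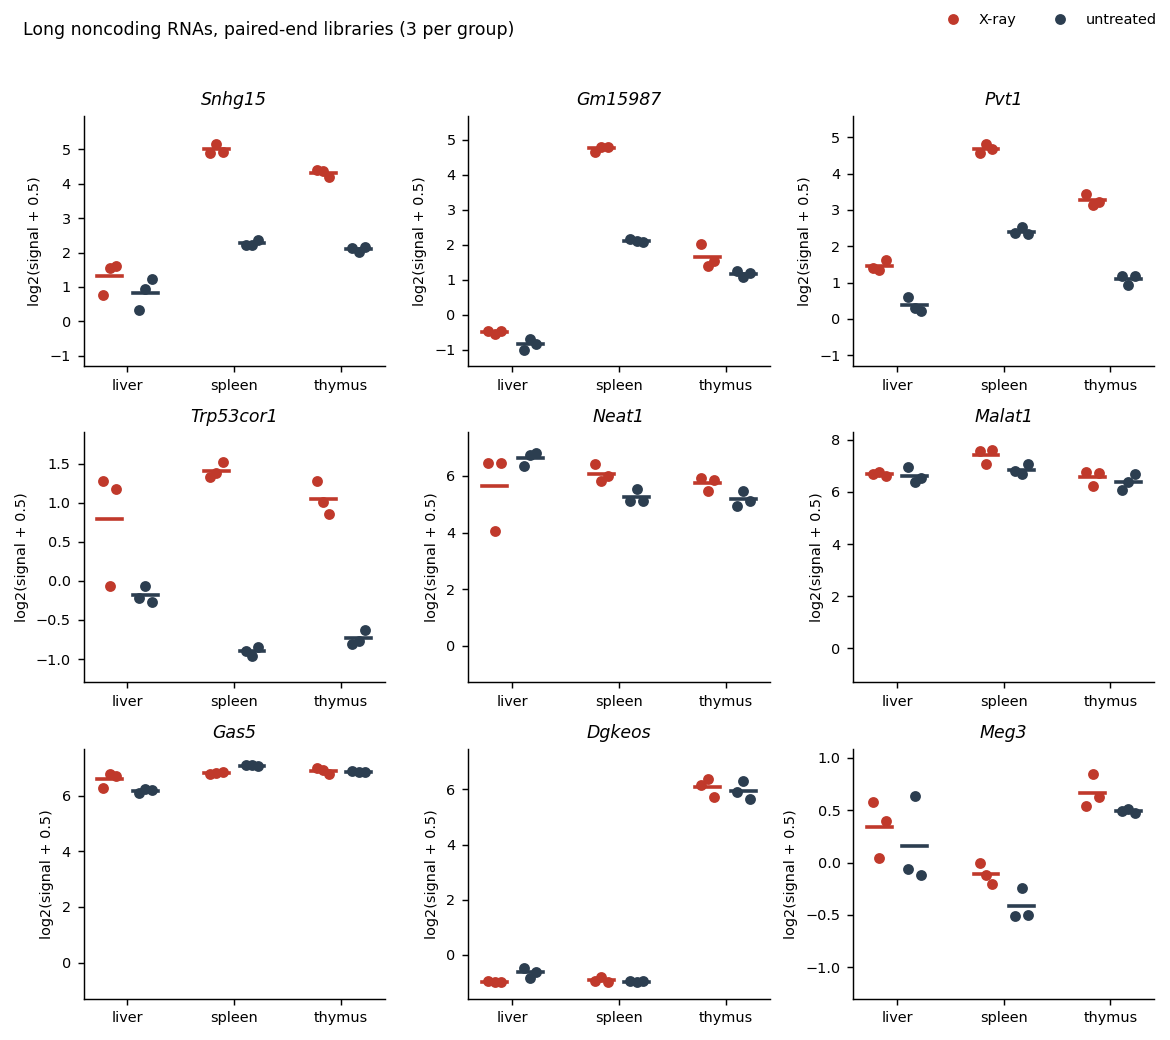
Signal of the 9 long noncoding RNAs in each paired-end library, on a log2(signal + 0.5) scale with an axis of its own for each gene. Points are libraries of X-ray (red) and untreated (dark) wt liver, spleen and thymus and bars are group means (n = 3). Snhg15 and Pvt1 separate in spleen and thymus, Gm15987 in spleen only by a wide gap, and Dgkeos is near the floor outside thymus.

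Snhg15, a short spliced host of a small nucleolar RNA (gene 100041286, chr11:6525591-6528760, minus strand, with Snora9 inside it), had 29.5, 35.4 and 29.8 signal in X-ray spleen, against 4.14, 4.14 and 4.67 in untreated spleen. X-ray thymus held 20.5, 20.1 and 17.7, against 3.91, 3.58 and 3.93 in untreated thymus. Every irradiated library lay several-fold above every untreated one in both organs. The ratio of means was 7.31 in spleen (log2 difference 2.73 ± 0.12 SE, adjusted p = 1.85e-06) and 5.10 in thymus (2.21 ± 0.11, adjusted p = 1.74e-06). Liver libraries were low and overlapped, with 1.19, 2.45 and 2.55 after X-rays and 0.749, 1.42 and 1.85 without (0.48 ± 0.31, adjusted p = 0.358). Among long noncoding RNAs, Snhg15 had the second highest log2 difference of 263 in spleen and the fourth of 278 in thymus. Its neighbour Myo1g, a blood cell myosin gene 4631 bases away, also rose, to 121 ± 44.5 in X-ray spleen against 52.1 ± 3.90 in untreated spleen, and to 79.0 ± 8.29 in X-ray thymus against 59.0 ± 2.39 in untreated thymus.

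Pvt1, the long locus downstream of Myc (gene 19296, chr15:62037986-62260215, plus strand), had 23.0, 27.8 and 25.2 signal in X-ray spleen, against 4.61, 5.23 and 4.53 in untreated spleen. In thymus it had 10.4, 8.28 and 8.75 after X-rays, against 1.76, 1.41 and 1.76 without. It rose 5.29-fold in spleen (2.29 ± 0.12, adjusted p = 5.50e-06) and 5.56-fold in thymus (2.17 ± 0.14, adjusted p = 1.32e-05), with no overlap of libraries. X-ray liver held 2.13, 2.03 and 2.55, against 1.01, 0.726 and 0.666 in untreated liver. These liver groups did not overlap either, but the log2 difference of 1.08 ± 0.19 did not pass (adjusted p = 0.0976), although it passed under DESeq2 (adjusted p = 0.00116), without the variance trend (adjusted p = 0.0422) and without X-ray liver replicate 1 (adjusted p = 0.0177). Myc, the growth-driving transcription factor 47625 bases away, moved otherwise and fell to 19.2 ± 2.59 in X-ray thymus, against 43.5 ± 2.37 in untreated thymus (-1.17 ± 0.11, adjusted p = 0.000128), and had 38.7 ± 8.24 in X-ray spleen and 40.6 ± 9.40 in untreated spleen.

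Gm15987 (gene 100504591, chr6:128952353-128975029, minus strand) lies wholly inside Clec2g, a C-type lectin gene on the opposite strand. It had 24.5, 27.1 and 27.4 signal in X-ray spleen, against 3.98, 3.77 and 3.76 in untreated spleen, a tight split with a ratio of means of 6.87 (2.63 ± 0.10, adjusted p = 1.29e-06). X-ray thymus had 3.59, 2.12 and 2.42, against 1.90, 1.60 and 1.78 in untreated thymus, which did not overlap and did not pass (0.48 ± 0.19, adjusted p = 0.0911). Liver was nearly empty, with 0.223, 0.188 and 0.228 after X-rays and 0, 0.121 and 0.0606 without, and was not tested. Clec2g averaged 0.555 ± 0.179 in X-ray spleen and 0.195 ± 0.0883 in untreated spleen, far below Gm15987. The kit marks strand per the labels, but the sources used here do not say whether counting used it, and without that reads of overlapping partners cannot be told apart. Markers of several cell types also differed in spleen: the summed level of 7 B cell markers was 1392 to 2092 in X-ray and 1046 to 1251 in untreated spleen, with 4 of 7 called higher and none lower, and that of 7 macrophage markers 475 to 687 in X-ray and 308 to 400 in untreated spleen, with 6 of 6 tested called higher. No B cell or macrophage marker was at 0 in all 6 libraries. The 8 hepatocyte markers summed to 36.4, 455 and 387 in X-ray spleen, against 30.3, 21.1 and 41.4 in untreated spleen, with 6 of 6 tested called higher. Markers of neutrophils and myeloid precursors summed to 446 to 1011 in X-ray and 340 to 463 in untreated spleen, with 5 of 7 called higher. The 6 erythroid markers summed to 78459 to 120126 in X-ray and 47489 to 71359 in untreated spleen, with none called. The 7 endothelial markers summed to 193 to 226 in X-ray and 160 to 178 in untreated spleen, with 3 called higher. Sums of thymocyte and T cell markers overlapped in spleen. In X-ray thymus 5 of 6 tested neutrophil and myeloid precursor markers were called higher (sums of 44.4 to 101 in X-ray and 26.1 to 43.6 in untreated thymus). So were 4 of 7 thymic epithelial markers (1218 to 1287 in X-ray, 793 to 821 in untreated) and 3 of 6 tested macrophage markers (206 to 309 in X-ray, 160 to 201 in untreated). No marker of these lists was called lower there. Of 8 thymocyte and T cell markers tested in thymus, 0 were called higher and 1 lower (5898 to 7565 in X-ray, 5860 to 6732 in untreated). Over all genes, 19.5% were called higher in X-ray spleen and 9.77% in X-ray thymus. The part of cell makeup in the spleen and thymus values was not tested. The spleen calls of Gm15987, Snhg15, Pvt1 and Neat1 held with each library left out in turn, and that of Trp53cor1 with each untreated library left out, while with an X-ray library left out it no longer met the filter. In bulk tissue, fewer cells of a type and less RNA per cell cannot be told apart.

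Trp53cor1 (gene 100504267, chr17:29057474-29079126, minus strand) had 2.02, 2.10 and 2.37 signal in X-ray spleen, against 0.0370, 0.0156 and 0.0569 in untreated spleen. In thymus it had 1.93, 1.51 and 1.32 after X-rays, against 0.0722, 0.0892 and 0.149 without. The groups stood far apart at a low absolute level, and the gene passed the filter only through its irradiated libraries, so it had to differ. Pooled reads were 340 in X-ray and 6 in untreated spleen, a ratio at equal depth of 61.9 with a 95% counting interval of 28.2 to 170, and 393 in X-ray and 27 in untreated thymus, a ratio of 15.9 (10.8 to 24.5). Counting intervals cover counting error only. The fitted log2 differences, 2.31 ± 0.15 in spleen and 1.78 ± 0.18 in thymus, are held down by the added 0.5. Liver, which was not tested, had 1.93, 0.452 and 1.76 after X-rays, against 0.358, 0.453 and 0.333 without, with X-ray replicate 2 inside the untreated range. Cdkn1a, 11853 bases away, rose in all 3 tissues, with liver at a log2 difference of 2.97 ± 0.15, spleen at 4.87 ± 0.16 and thymus at 3.01 ± 0.12. On the other side, Srsf3, a splicing factor gene 14102 bases away, fell by 0.41 in spleen and by 0.40 in thymus on the log2 scale.

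Gas5, the other small nucleolar RNA host (gene 14455, chr1:161034601-161038539, plus strand), is a spliced RNA known to be degraded by nonsense-mediated decay, and 10 small nucleolar RNAs are annotated inside it. It had 109, 112 and 114 signal in X-ray spleen, against 136, 135 and 133 in untreated spleen. The groups did not overlap, and the difference of -0.27 ± 0.10 did not pass (adjusted p = 0.0539) but did under DESeq2 (adjusted p = 0.0260), with no filter (adjusted p = 0.0441) and without X-ray spleen replicate 1 (adjusted p = 0.0428). Liver held 76.8, 110 and 104 after X-rays, against 67.9, 74.9 and 73.7 without (0.41 ± 0.15, adjusted p = 0.196), and passed without X-ray liver replicate 1 (0.56, adjusted p = 0.0169). Thymus held 126, 120 and 110 after X-rays, against 117, 114 and 113 without (0.05 ± 0.08, adjusted p = 0.695). Gas5 thus was within 1.34-fold of untreated in every tissue, while Snhg15, a host of the same class, rose in both lymphoid organs. Gas5 overlaps Zbtb37, a zinc finger gene, by 249 bases on the opposite strand, and Zbtb37 had 2.77 ± 0.0928 in X-ray spleen and 3.23 ± 0.520 in untreated spleen.

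Neat1, whose long isoform builds paraspeckles (gene 66961, chr19:5824708-5845480, minus strand), had 85.5, 56.2 and 62.8 signal in X-ray spleen, against 33.9, 46.2 and 34.0 in untreated spleen. In thymus it had 60.3, 43.5 and 57.6 after X-rays, against 30.1, 43.3 and 34.2 without. It rose 1.79-fold in spleen (0.83 ± 0.18, adjusted p = 0.00728) and less in thymus (0.58 ± 0.15, adjusted p = 0.0255). The lowest irradiated thymus library and the highest untreated one were almost level, and the thymus call was lost without the variance trend (adjusted p = 0.0515) and without untreated replicate 1 (0.0788), untreated replicate 3 (0.0698), X-ray replicate 1 (0.0623) or X-ray replicate 3 (0.0891), each an adjusted p. Liver held 86.7, 16.1 and 87.4 after X-rays, against 81.5, 107 and 112 without. X-ray liver replicate 2 was far below its partners there, and the difference did not pass (-0.99 ± 0.57, adjusted p = 0.307). That library also had the lowest sum of 6 erythroid markers in its group, 1937 against 3694 and 4868 in the other X-ray livers, and the part of this in its Neat1 value was not tested.

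Malat1, a neighbour of Neat1 22036 bases away (gene 72289, chr19:5795690-5802672, minus strand), had 191, 135 and 195 signal in X-ray spleen, against 111, 102 and 134 in untreated spleen. The lowest irradiated and the highest untreated library were almost level, and Malat1 rose (0.57 ± 0.17, adjusted p = 0.0260). That call was lost without untreated spleen replicate 1 (adjusted p = 0.0851), untreated replicate 2 (0.102) or X-ray replicate 3 (0.106). In thymus it had 109, 74.7 and 105 after X-rays and 67.1, 81.8 and 104 without, and in liver 103, 107 and 96.7 after X-rays and 123, 81.5 and 92.6 without. Neither passed, with log2 differences of 0.19 ± 0.17 and 0.06 ± 0.16. Frmd8, the neighbour on the far side of Neat1, rose in spleen (28.1 ± 0.521 in X-ray and 19.6 ± 0.0148 in untreated spleen).

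Meg3 and Dgkeos did not pass after X-rays in any tissue where they were tested. Meg3 (gene 17263, chr12:109540996-109571729, plus strand), best known as a maternally expressed growth suppressor, stayed at or under 1.29 signal in all 18 paired-end libraries: 0.952, 1.29 and 1.04 in X-ray thymus, against 0.908, 0.922 and 0.892 in untreated thymus, and 0.423 as the median of X-ray spleen, against 0.209 in untreated spleen. Dgkeos (gene 414094, chr11:89060751-89067884, plus strand) was a thymus RNA, with 70.8, 82.1 and 51.9 signal in X-ray thymus, against 59.1, 78.8 and 49.6 in untreated thymus (0.13 ± 0.19, adjusted p = 0.660). The other paired-end tissues held at most 0.228. Its antisense partner Dgke fell to 46.7 ± 3.80 in X-ray thymus, against 73.3 ± 8.74 in untreated thymus (-0.64 ± 0.10, adjusted p = 0.00327), while Dgkeos overlapped between those groups.

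The X-ray response differed between tissues for 5 members in a test of the difference itself, fitted over 15654 genes of which 30.5% passed. Gm15987 had F = 76.8 (limma, adjusted p = 2.20e-06), with its wide gap in spleen alone. Snhg15 had F = 29.2 (adjusted p = 0.000248) and Pvt1 F = 22.6 (adjusted p = 0.000671), both with smaller liver than lymphoid differences. Gas5 had F = 10.4 (adjusted p = 0.00931), with values of opposite sign in liver and spleen that did not pass by themselves, and Trp53cor1 F = 7.74 (adjusted p = 0.0215). The Trp53cor1 result was lost with a pseudocount of 2 (adjusted p = 0.0517) and without untreated liver replicate 2 (adjusted p = 0.0529). The added 0.5 holds down fitted differences of low genes, so F values of low genes depend in part on the scale. Pvt1 in liver had a ratio of means of 2.79 and a DESeq2 log2 difference of 1.54, against 1.08 fitted. Gm15987 in liver and Trp53cor1 in untreated libraries lay under the added 0.5. Neat1 missed the threshold (F = 5.27, adjusted p = 0.0532) but passed with any one of the 3 X-ray liver libraries left out, at F of 7.22 to 8.19, with a pseudocount of 2 (adjusted p = 0.0482) and under median-ratio scaling (adjusted p = 0.0472). Malat1, Meg3 and Dgkeos did not pass, at adjusted p of 0.272, 0.879 and 0.254, although Dgkeos did with a pseudocount of 0.1 (adjusted p = 0.0248).

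**Figure D2:**
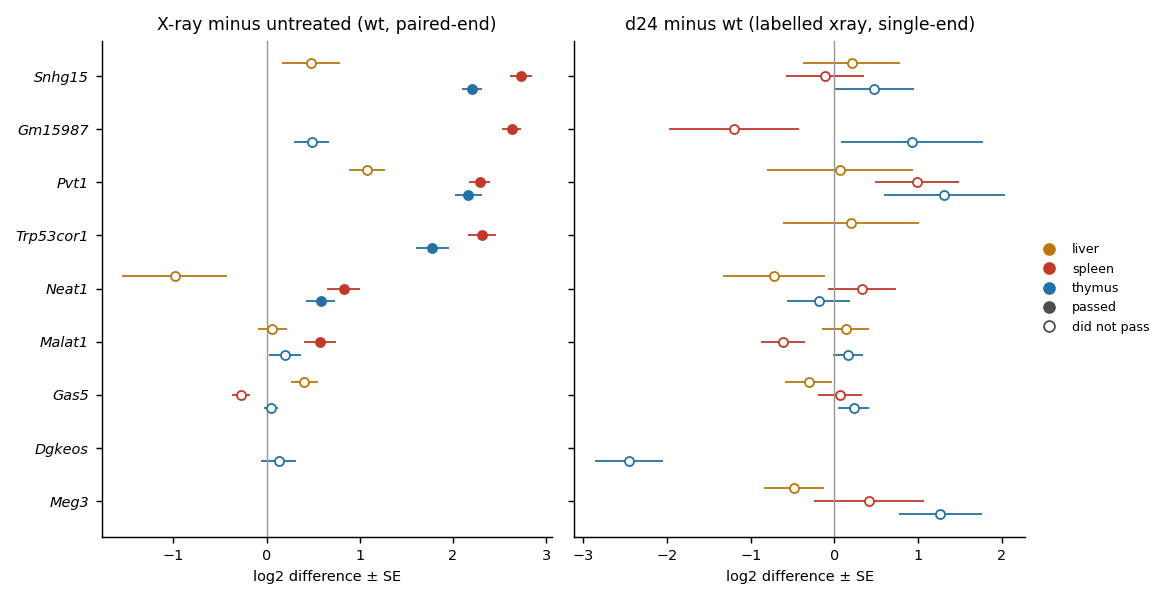
Log2 difference ± SE from limma for each member and tissue tested, X-ray minus untreated wt on the left and d24 minus wt, both labelled xray, on the right. Filled points passed an adjusted p of 0.05 over all genes and open points did not. All 10 filled points are X-ray differences in spleen or thymus, and no genotype difference passed.

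Without treatment, the members already differed between organs. Their levels in these libraries were known when they were chosen, so these comparisons are a description too. Untreated spleen against liver called 4 of 6 tested members higher and 1 lower, at 42.5% and 44.6% of all genes. Untreated thymus against liver called 5 of 7 higher and 1 lower, at 41.3% and 45.5%, and untreated spleen against thymus 4 of 7 higher and 1 lower, at 39.3% and 36.7%. Most genes thus differed between organs, and nothing is read from the members' counts. Gm15987 passed the filter against liver only through the lymphoid organ, and Dgkeos passed it only through thymus, against liver and against spleen, so these had to differ. Gm15987 ran spleen over thymus over liver, with each step passed (spleen minus thymus 0.94 ± 0.12, thymus minus liver 2.01 ± 0.13 on the log2 scale), and so did Pvt1 (1.31 ± 0.13 and 0.73 ± 0.14). Snhg15 was higher in spleen (1.44 ± 0.21) and thymus (1.27 ± 0.21) than in liver, while spleen and thymus did not differ beyond their spread (0.16 ± 0.11, adjusted p = 0.221). Gas5 was likewise higher in spleen (0.90 ± 0.08) and thymus (0.67 ± 0.07) than in liver, and its small spleen minus thymus step of 0.23 ± 0.06 turned to -0.09 under quantile scaling. Neat1 ran the other way, lower in spleen (-1.39 ± 0.15) and thymus (-1.47 ± 0.16) than in liver. Malat1 did not pass against liver in spleen (0.23 ± 0.15) or thymus (-0.24 ± 0.18), but it was called higher in both under quantile scaling (0.71, adjusted p = 0.00159, and 0.46, adjusted p = 0.0467), and in spleen without untreated liver replicate 1 (0.40, adjusted p = 0.0140). Its spleen minus thymus difference of 0.47 ± 0.15 passed (adjusted p = 0.0162) but was lost under quantile scaling (adjusted p = 0.271) and without spleen replicate 3 (0.0699) or thymus replicate 1 (0.0554). For Dgkeos the thymus minus liver value was 6.59 ± 0.18 and the spleen minus thymus value -6.91 ± 0.16.

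Per kilobase of annotated exon, Gas5 was the most abundant member in untreated spleen at 35.8 ± 0.410 signal per kb, above Malat1 at 16.6 ± 2.39, Snhg15 at 3.18 ± 0.223, Neat1 at 1.83 ± 0.341, Gm15987 at 1.72 ± 0.0554 and Pvt1 at 0.685 ± 0.0550. In X-ray spleen, Snhg15 stood at 23.2 ± 2.47 signal per kb, beside Malat1 at 24.8 ± 4.81 and Gas5 at 29.6 ± 0.684, and Gm15987 at 11.8 ± 0.703 was above Neat1 at 3.28 ± 0.741. Untreated thymus had Gas5 at 30.5 ± 0.465 and Dgkeos at 29.3 ± 6.99 signal per kb at the top, which did not differ beyond their spread. Trp53cor1 and Meg3 were at the bottom of untreated spleen and thymus, with Dgkeos in spleen, at 0.0502 signal per kb or less. Lengths here are the union of exons over all annotated transcripts, 20771 bases for Neat1 and 3760 for the 25 transcripts of Gas5. The exons that were counted are not given, so the order of members depends on this choice of length.

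In the single-end libraries no member passed between d24 and wt in any tissue. Over all genes, liver had 0.526% called, spleen 2.28% and thymus 0.00724%, and 7, 7 and 8 members were tested; with unadjusted p under 0.05 there were 1829, 1796 and 1359 genes, and DESeq2 called 531, 597 and 266. Snhg15 had 5.42, 3.66 and 3.96 signal in d24 spleen, against 4.05, 3.55 and 7.03 in wt spleen (-0.11 ± 0.47), overlapping, and Gm15987 had 4.52, 0.794 and 0, against 2.74, 2.45 and 3.64 (-1.20 ± 0.78). Pvt1 had 4.11, 11.4 and 13.1 in d24 spleen, against 4.21, 3.05 and 5.19 in wt spleen (0.99 ± 0.50, adjusted p = 0.439), with d24 replicate 1 inside the wt range. By group mean, all 3 stood closer to the untreated than to the X-ray paired-end levels in single-end spleen and thymus, in d24 as in wt. For Gm15987 in thymus those paired-end means, 1.76 untreated and 2.71 X-ray, were not called different (limma, adjusted p = 0.0911). Its wt single-end thymus libraries spanned 0 to 4.54, so nothing is read from its thymus means. The d24 spleen means were 4.35 for Snhg15, 1.77 for Gm15987 and 9.52 for Pvt1. These levels are set side by side across tables that were normalised separately. In the same spleen libraries Cdkn1a differed by 5.59 ± 0.28 (adjusted p = 1.63e-06) and 11 of 23 p53 targets tested rose, with a median of 1.22, against 1.04% of all genes called higher. Cell markers also moved in these libraries: all 7 neutrophil and myeloid precursor markers were called lower (1.24% of all genes were), with sums of 105 to 900 in d24 and 2729 to 8289 in wt spleen and a median log2 difference of -3.92. The 7 B cell markers summed to 57.3 to 314 in d24 and 459 to 607 in wt spleen, with 1 called lower. In liver 6 of the 7 neutrophil markers were called lower (0.248% of all genes were), with sums of 13.3 to 71.2 in d24 and 393 to 890 in wt. The part of this in the members' values was not tested.

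Between d24 and wt, Cdkn1a passed in single-end spleen but not in single-end thymus (limma, 1.16 ± 0.41, adjusted p = 0.380). By pooled reads, Trp53cor1 was higher in d24 than in wt in both organs, the direction of the Cdkn1a means. It had 1.91, 2.45 and 0.305 signal in d24 spleen, against 0.0319, 0 and 0.125 in wt spleen, 145 reads against 4, a ratio at equal depth of 35.2 (13.4 to 131). In thymus it had 0.239, 0.307 and 1.32 in d24, against 0 in all 3 wt libraries, 68 reads against none, at least 6.13-fold higher against a floor of 3 reads per library. Most of those reads were from d24 replicate 3, and without it the bound was 3.03-fold. The spleen ratio was 22.3 without wt replicate 2 and 102 without wt replicate 3, which leaves 1 wt read. Neither was tested, because fewer than 3 libraries reached a signal of 1. In liver it had 0.187, 4.97 and 1.26 in d24, against 1.51, 0.579 and 1.51 in wt, which overlapped (0.20 ± 0.81, adjusted p = 0.938).

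**Figure D3:**
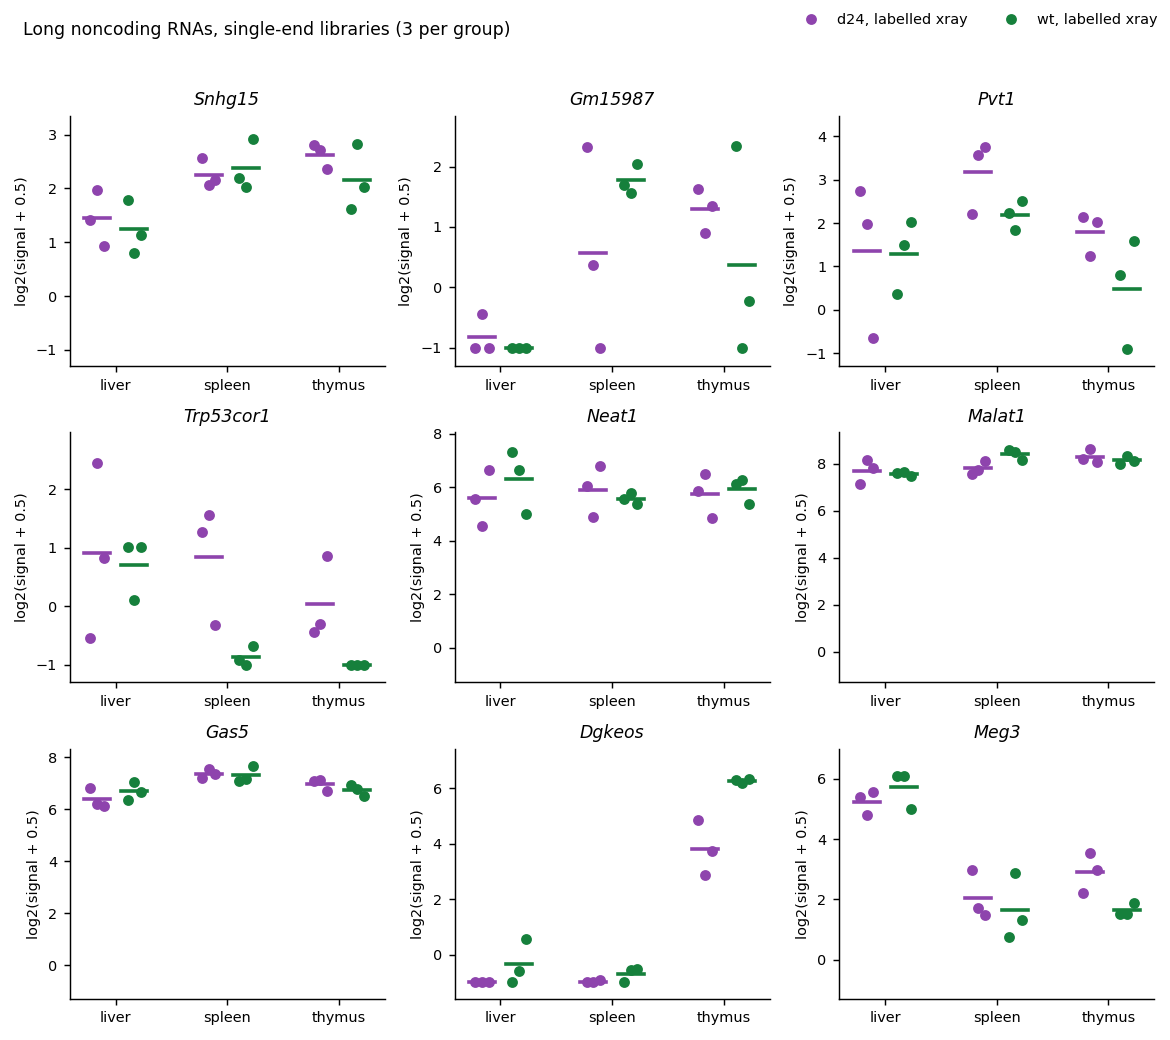
Signal of the 9 long noncoding RNAs in each single-end library, on a log2(signal + 0.5) scale with an axis of its own for each gene. Points are d24 (purple) and wt (green) libraries labelled xray and bars are group means (n = 3). Groups stand apart for Dgkeos and Meg3 in thymus, Malat1 in spleen and Trp53cor1 in spleen and thymus.

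Malat1 had 190, 212 and 276 signal in d24 spleen, against 386, 360 and 285 in wt spleen, with no overlap (-0.61 ± 0.26, adjusted p = 0.334), in the spleen libraries whose neutrophil and B cell marker sums did not overlap either. Meg3 had 4.10, 11.1 and 7.30 in d24 thymus, against 2.36, 2.35 and 3.16 in wt thymus, also apart (1.27 ± 0.49, adjusted p = 0.447). The sum of 7 fibroblast and stromal markers was 310, 494 and 1165 in those d24 thymus libraries, against 261, 147 and 167 in wt thymus, none of the 7 passed, and the part of this in Meg3 was not tested. Groups without overlap were 7.55% of genes in the lower and 9.02% in the higher direction in thymus, and 10.6% in the lower direction in spleen. Single-end liver held Meg3 at 41.5, 27.3 and 46.5 in d24 and 67.5, 68.3 and 31.7 in wt, where the paired-end livers held at most 1.06. Rian, the next imprinted RNA of the cluster 32216 bases away, was likewise at 21.3 ± 9.97 in d24 and 24.1 ± 1.97 in wt single-end liver, against 2.07 ± 0.482 in X-ray and 1.63 ± 0.201 in untreated paired-end liver. H19, a fetal liver RNA chosen after its values were seen, was 39650, 39690 and 40436 in d24 and 27554, 34715 and 17137 in wt single-end liver, against 803, 1618 and 936 in X-ray and 564, 196 and 275 in untreated paired-end liver. The age of the mice is not given, and layout and source of the tissues cannot be told apart.

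Dgkeos showed the lowest log2 difference of all 312 long noncoding RNAs tested in single-end thymus and ranked 13813 of 13818 genes. It had 28.8, 6.75 and 12.7 signal in d24 thymus, against 77.9, 73.3 and 79.7 in wt thymus. The highest d24 library lay well below the lowest wt one, yet the difference of -2.46 ± 0.41 did not pass (adjusted p = 0.106), with adjusted p from 4.65e-05 to 0.486 over the alternatives. It passed under DESeq2 (adjusted p = 4.65e-05), without d24 replicate 1 (0.00729) and without d24 replicate 3 (0.00234). Dgke on the opposite strand, which shares 6100 bases, had 63.7 ± 32.4 in d24 and 126 ± 11.6 in wt thymus (-1.12 ± 0.34, adjusted p = 0.343), without overlap. The sum of 8 thymocyte and T cell markers was 6514, 7498 and 4631 in d24, against 8018, 8562 and 7908 in wt thymus, and none of the 8 passed. In d24 thymus replicate 3 the 8 hepatocyte markers summed to 1309, against 24.1 and 87.4 in the other d24 and 3.77 to 9.04 in the wt libraries. Every d24 thymocyte sum lay below every wt sum, and the part of cell makeup in the Dgkeos value was not tested.

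**Figure D4:**
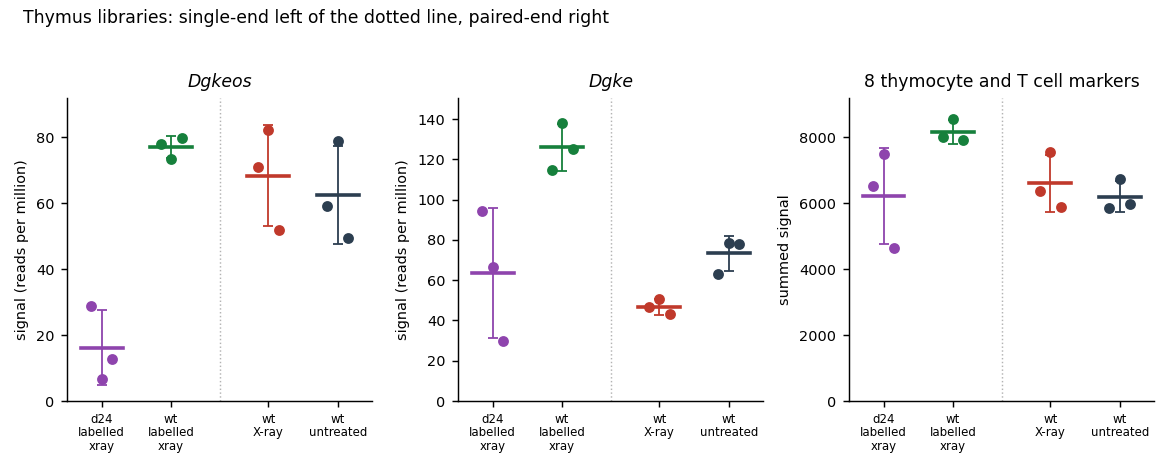
Signal of Dgkeos and of its antisense partner Dgke and the summed signal of 8 thymocyte and T cell markers in the 12 thymus libraries, single-end left of the dotted line and paired-end right. Points are libraries and bars are means ± SD (n = 3); Dgkeos is 6.75 to 28.8 in d24 and at least 49.6 in every other thymus library.

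The remaining members overlapped between d24 and wt in every tissue. Neat1 had 64.8, 29.5 and 112 signal in d24 spleen and 47.3, 54.1 and 41.3 in wt spleen, a wide spread within d24. In thymus it had 58.0, 89.3 and 28.2 in d24 and 69.4, 75.8 and 41.3 in wt, and in liver 46.8, 22.9 and 99.9 in d24 and 157, 98.9 and 31.3 in wt. Gas5 had 146, 188 and 165 in d24 spleen and 137, 142 and 202 in wt spleen, with log2 differences of -0.31 ± 0.28, 0.07 ± 0.26 and 0.23 ± 0.18 in liver, spleen and thymus. Pvt1 had 3.91, 1.87 and 3.56 in d24 thymus and 1.25, 0.0309 and 2.48 in wt thymus (1.31 ± 0.72, adjusted p = 0.589). No member passed the test of whether the genotype difference varied between tissues, which 0.988% of 16092 genes passed, and Dgkeos had the highest F of the 9 at 5.46 (adjusted p = 0.258), which passed with a pseudocount of 2 (F = 13.9, adjusted p = 0.0196).

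Other small nucleolar RNA hosts did not follow Snhg15 as a group. Of 20 listed hosts 16 were tested in X-ray spleen, where 4 rose and 1 fell, with a median log2 difference of -0.06 against -0.03 over all genes. Of all genes 20.4% were called lower in X-ray spleen and 11.6% in X-ray thymus, beside the shares called higher given above. Snhg17 rose to 12.1 ± 2.03 in X-ray spleen against 7.38 ± 1.19 in untreated spleen, and Snhg12 to 17.1 ± 1.92 against 11.6 ± 1.13, while Snhg4 fell to 4.25 ± 0.748 against 6.44 ± 0.792. In thymus 3 of 16 rose (Snhg11, Snhg12 and Zfas1) and 2 fell (Snhg4 and Dancr), and in liver none of 14 passed. Among other named long noncoding RNAs, 3 of 16 tested rose in spleen and 2 fell, and 3 of 18 rose in thymus and 2 fell. Tug1, a widely expressed nuclear and cytoplasmic RNA, fell in both, to 52.1 ± 2.82 in X-ray spleen against 73.3 ± 4.01 in untreated spleen and to 76.2 ± 4.05 in X-ray thymus against 96.6 ± 5.10 in untreated thymus. Mir22hg, host of a microRNA, rose in spleen (9.59 ± 1.59 in X-ray, 5.37 ± 0.690 in untreated). Mir17hg, host of the miR-17 cluster, rose in spleen (5.14 ± 0.813 in X-ray, 3.62 ± 0.373 in untreated) and fell in thymus (1.87 ± 0.454 in X-ray, 4.27 ± 1.12 in untreated). Rpph1, the RNA of ribonuclease P, rose in thymus by a log2 difference of 1.67 ± 0.18.

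The genes of proteins that work with Neat1 and Malat1 fell where they passed. Against those 20.4% in spleen and 11.6% in thymus of all genes, 7 of 15 paraspeckle protein genes fell and none rose in X-ray spleen, with a median of -0.35, and 5 fell and none rose in thymus, with a median of -0.23. Tardbp, an RNA-binding protein, fell to 126 ± 7.40 in X-ray spleen against 194 ± 14.1 in untreated spleen, and Cpsf6, a polyadenylation factor, to 46.3 ± 2.26 against 72.7 ± 2.64. Of 14 nuclear speckle genes 4 fell in spleen, a share near that of all genes, and 9 in thymus, and none rose, led in thymus by Srsf7 (96.7 ± 13.5 in X-ray, 152 ± 8.30 in untreated) and Pnn (57.4 ± 0.944 in X-ray, 84.5 ± 8.17 in untreated). Nonsense-mediated decay genes, the pathway that degrades Gas5, held 1 fall of 14 in spleen (Magoh) and 3 of 14 in thymus. Of 12 nucleolar genes counted as Myc targets, Myc included, 10 fell and none rose in X-ray thymus, with a median of -0.64, and 2 rose and none fell in spleen. Nop58, a small nucleolar ribonucleoprotein core gene, fell to 48.8 ± 3.27 in X-ray thymus against 104 ± 4.41 in untreated thymus. No gene of these lists passed in liver, and none passed between d24 and wt in any tissue. No tested gene of the Dlk1-Dio3 cluster list passed in either table.

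Across the 18 paired-end libraries, after centring each tissue on its own mean, the gene most like Pvt1 was Zmat3 (Pearson r = 0.99), a p53 target. Trp53cor1 was most like Psrc1 (0.97), Snhg15 like Rxylt1 (0.98), Gm15987 like Fas (0.96), Neat1 like Abhd14a (0.95) and Gas5 like Sppl2a (0.96). Malat1 reached 0.86 with Cpeb3, Meg3 0.81 with Zfp36 and Dgkeos 0.80 with Mm2pr. These are descriptions over 15654 genes, and the libraries share their treatment split, tissue and depth. Members, predicted gene models, small RNAs and pseudogenes were passed over in naming, so such a gene can lie ahead of a named one. In the 18 single-end libraries the highest r ran from 0.79 (Pvt1 with Fcf1, Snhg15 with Mapre3) to 0.89 (Dgkeos with Baiap3, Neat1 with Neurl1b). They were lower than in the paired-end libraries for every member but Dgkeos.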

How the data were processed

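Per the labels' protocols, RNAlater preserved the tissue, the RNeasy Mini kit gave the RNA, and 1 ug of it went into each TruSeq Stranded Total RNA library. The submitters' processing notes name edgeR and mm10, with no version. The aligner, the counter and the strand setting: not given in the sources used here. The authors deposited 1 table of normalised signal per gene for each layout. In both, the deposited signal was a whole number of reads times a constant per library for 100% of values within 0.01 of a step, so reads were recovered. Rows are NCBI gene numbers: 96.7% of paired-end and 97.1% of single-end rows matched a RefSeq symbol. Another 18 columns of the paired-end table match no library here and were not used.

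Groups follow the titles. limma 3.58.1 (R 4.3.3, eBayes with trend) was fitted to log2(signal + 0.5) of all genes with signal of at least 1 in 3 libraries, with Benjamini-Hochberg adjustment at 0.05, for 9 comparisons and 2 interaction tests. Fold values are ratios of mean signal, and fitted log2 differences understate changes of low genes. Alternatives were pseudocounts of 0.1 and 2, no filter, a mean signal of 5 or more, quantile and median-ratio scaling, no trend, a replicate block, edgeR 4.0.16 and DESeq2 1.42.0 on recovered reads, each library left out in turn, and, chosen after seeing the data, Xist level as a covariate for sex. The tests were checked on simulated data.

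Named are the 9 members, Trp53, the nearest tested neighbours, up to 4 called genes a list and the genes of highest r. The members, gene lists and marker lists were chosen with earlier results of these data known. Same-numbered libraries deviated together in X-ray spleen (r of 0.177, 0.241 and 0.191 for the 3 numbers) and in untreated spleen against thymus (0.278, 0.303 and 0.143), over genes, which are not replicates. A block on the number changed no member's call there. Coordinates and promoter sequences are from RefSeq on GRCm38.p6, the assembly behind mm10, and small RNAs inside the genes and exon lengths from GENCODE vM21.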

Additional observations from a re-analysis of the deposited data

Results flagged for a closer look

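X-ray differences that varied between liver, spleen and thymus, by limma's test of the interaction over 15654 genes, marked 5 members. Gm15987 had F = 76.8, with log2 differences of 2.63 ± 0.10 in spleen and 0.48 ± 0.19 in thymus and hardly any reads in liver. Snhg15 had F = 29.2 and Pvt1 F = 22.6, both with higher differences in spleen and thymus than in liver. Gas5 had F = 10.4, with 0.41 ± 0.15 in liver, -0.27 ± 0.10 in spleen and 0.05 ± 0.08 in thymus, none of which passed alone. Trp53cor1 had F = 7.74, which rests on few reads in the untreated libraries. Since 30.5% of all genes passed the same test, these 5 of 9 are not read as particular to the members. Groups of 3 libraries are too small to look for a single outlying library.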

How the results depend on the processing

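Of the members' values under settings other than leaving a library out, 737 kept direction and side of the threshold, 11 gained and 3 lost a call and 9 turned; with 1 library left out 635 kept both, 9 gained, 10 lost and 21 turned. No X-ray call of Snhg15 or Pvt1 in spleen and thymus, or of Gm15987 in spleen, was lost under these settings. The Trp53cor1 X-ray calls in spleen and thymus were kept wherever it was tested, which leaves out a mean signal of at least 5 and the fits without an X-ray library. Its X-ray by tissue call was lost with a pseudocount of 2 and without untreated liver replicate 2. Counts of all genes called moved by over 1.5 times as follows. X-ray liver, 32 genes, gave 631 with DESeq2 and 19 with the Xist covariate. The d24 liver count of 72 became 44 with a pseudocount of 0.1, 43 with no filter, 46 with a mean signal of at least 5, 33 with the replicate block, 11 with edgeR and 531 with DESeq2. The d24 spleen count of 309 became 159 with no filter, 574 with the replicate block, 145 with edgeR, 597 with DESeq2 and 31 with the Xist covariate. The single call in d24 thymus became 2 with a pseudocount of 2, quantile scaling or edgeR, 0 with no filter, the replicate block or the Xist covariate, and 266 with DESeq2. The genotype by tissue test gave 92 with a mean signal of at least 5 and 46 with edgeR, against 159. The cause of these moves was not tested.

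Leaving out 1 library at a time gave 9 to 2836 genes in X-ray liver, 3136 to 7037 in X-ray spleen (5351 with all), 1576 to 2851 in X-ray thymus (2945 with all), 4 to 311 in d24 liver, 119 to 241 in d24 spleen, 0 to 71 in d24 thymus, 3470 to 6403 in the X-ray by tissue test and 84 to 253 in the genotype by tissue test. The untreated comparisons gave 10961 to 11170 for spleen against liver, 9279 to 9786 for spleen against thymus and 10955 to 11504 for thymus against liver.

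Values that turned sign had not passed, save Gas5 in untreated spleen against thymus. Under the Xist covariate these were Malat1 in X-ray liver (-0.042), Trp53cor1 (-0.012) and Malat1 (-0.027) in d24 liver, and Snhg15 (0.24) and Meg3 (-0.83) in d24 spleen, and with a pseudocount of 0.1 Pvt1 in d24 liver (-0.19). Under quantile scaling, which moved the median of all genes by 0.38 in thymus against liver, Malat1 there became 0.46 (adjusted p = 0.0467), and in spleen against thymus Neat1 became -0.044 and Gas5 -0.086. Median-ratio scaling moved that thymus against liver median by 0.15, and quantile scaling spleen against liver by 0.31. The share of calls that were higher was 58% under quantile scaling against 47.5% for thymus over liver, 57.4% against 48.8% for spleen over liver, and 50% against 100% in d24 thymus. With 1 library left out, ranges that crossed 0 were -0.069 to 0.23 for Malat1 in X-ray liver, -0.024 to 0.31 for Dgkeos in X-ray thymus and -0.062 to 0.23 for Neat1 in untreated spleen against thymus. In d24 liver they were -0.62 to 1.07 for Pvt1, -0.57 to 0.93 for Trp53cor1, -0.094 to 0.43 for Malat1 and -0.064 to 0.48 for Snhg15. In d24 spleen they were -0.046 to 1.04 for Meg3, -0.031 to 0.25 for Gas5, -0.11 to 0.84 for Neat1 and -0.29 to 0.16 for Snhg15, and in d24 thymus -0.57 to 0.26 for Neat1.

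Outside spleen, replicate numbers did not pair X-ray and untreated libraries in every pair. A block on the number gave Gm15987 a call in X-ray thymus (adjusted p = 0.0434) and changed no other member's call. A count of 0 in a library allows 0.0297 to 0.113 signal in the paired-end and 0.0512 to 0.248 in the single-end table, so Gm15987 in liver and Dgkeos outside thymus, at most 0.228 in the paired-end table, are near or under that limit in most libraries.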
